A study of Homo sapiens with 4 samples.

Results

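The 37 genes of the human mitochondrial genome were followed in 4 RNA libraries of WI-38, a fibroblast line that was established from human fetal lung and stops dividing after a limited number of doublings. The genes are 13 mRNAs, 2 rRNAs and 22 tRNAs; they were taken by their symbols, 37 of the 50765 symbols in the files, and each had a single annotated transcript. Each group held 1 library: young cells (population doubling level, PDL, 21) and senescent cells (PDL 60), each taken whole, here called unfractionated, or as mitoplasts. Mitoplasts are mitochondria without their outer membrane, here made by CHAPS lysis and hypotonic swelling and treated with RNase A, with no genotype or drug differing between groups. Levels are FPKM, fragment counts scaled to transcript length and to the library's mapped fragments. With 1 library a group, none of the differences could be checked against replicates, and condition and library cannot be told apart. Depth is unknown, and in such bulk samples fewer cells or mitochondria and less RNA in each cannot be told apart.

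The human mitochondrial genome is a small circle read from both strands into long polycistronic precursors. Processing enzymes cut these precursors at the tRNAs that punctuate them, which frees the mRNAs and rRNAs, and most of the mRNAs then receive short poly(A) tails. The mRNAs encode core subunits of respiratory complexes I, III and IV and of ATP synthase, the rRNAs build the mitochondrial ribosome, and the tRNAs serve translation inside the organelle. The TruSeq RNA kit named in the labels by default captures RNA with poly(A) tails, and mature tRNAs are very short. Whether that capture step was used was not stated in the labels.

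Assembled transcripts without a gene name held 53.7% of the summed FPKM in young unfractionated cells, 76.2% in senescent unfractionated cells, 92.7% in young mitoplasts and 97.3% in senescent mitoplasts. Of 10 lung fibroblast markers, 10 reached 1 FPKM in each whole-cell library and 9 in each mitoplast library; PDGFRB was listed at 0 in young mitoplasts and VIM in senescent ones. Epithelial markers summed to between 22.7 and 25.5 FPKM in the 4 libraries, while fibroblast markers summed to 8873 and 5903 FPKM in young unfractionated cells and mitoplasts and to 4442 and 1057 FPKM in the senescent pair. VIM weighed heavily on the fibroblast sums, at 3262.5 and 4312 FPKM in the young pair and 1144 and 0 in the senescent pair. Every other fibroblast marker was lower in young mitoplasts, and all but PDGFRB were lower in senescent mitoplasts. At most 1 of 4 blood and 1 of 2 endothelial markers reached 1 FPKM in any library. Cytosolic mRNAs were still present in mitoplasts: ACTB, GAPDH, EEF1A1 and RPLP0 summed to 7969 and 7755 FPKM in young unfractionated cells and mitoplasts, and to 5471 and 1382 FPKM in the senescent pair. The young sums hide opposite directions. ACTB was lower in young mitoplasts, at 5349 and 3176 FPKM. The others were higher there: GAPDH at 953 and 1818, EEF1A1 at 845 and 1695, and RPLP0 at 822 and 1065. All were lower in senescent mitoplasts than in senescent unfractionated cells. The nuclear RNAs MALAT1 and NEAT1 summed to 1278 and 91.7 FPKM in the young pair and to 2329 and 507 FPKM in the senescent pair. The part of such RNA in the mitochondrial values was not tested.

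The following 4 stretches of reference sequence show where mitochondrial reading frames overlap, since the values of these pairs come up next. The transcripts are from GENCODE release 29, with coordinates on GRCh38; the submitters' notes name hg19, and the files hold no coordinates. Capitals mark the bases that 2 neighbouring genes share, and for the downstream gene only the opening is shown. MT-ATP8 lies at chrM:8366-8572 and MT-ATP6 at chrM:8527-9207, both on the plus strand, with 46 nt in common. MT-ND4L lies at chrM:10470-10766 and MT-ND4 at chrM:10760-12137, also on the plus strand, with 7 nt in common. All are coding exons without introns.
MT-ATP8: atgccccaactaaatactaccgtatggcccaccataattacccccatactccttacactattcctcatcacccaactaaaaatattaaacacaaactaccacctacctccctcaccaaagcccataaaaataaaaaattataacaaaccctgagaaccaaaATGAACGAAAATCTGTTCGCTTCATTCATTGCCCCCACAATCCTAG
MT-ATP6: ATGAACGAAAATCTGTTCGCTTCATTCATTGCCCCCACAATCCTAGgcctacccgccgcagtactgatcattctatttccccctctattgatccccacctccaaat
MT-ND4L: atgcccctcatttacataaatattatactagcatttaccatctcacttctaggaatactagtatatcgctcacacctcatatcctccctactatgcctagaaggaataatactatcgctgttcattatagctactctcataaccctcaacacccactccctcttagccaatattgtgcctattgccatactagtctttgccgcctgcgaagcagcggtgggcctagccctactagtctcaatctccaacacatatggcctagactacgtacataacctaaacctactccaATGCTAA
MT-ND4: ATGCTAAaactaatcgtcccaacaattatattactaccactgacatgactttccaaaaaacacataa
In both pairs the downstream frame begins inside the upstream one, in another register. As background, each pair is known to be carried on a single mature RNA, and reads within the shared bases could be counted to either gene.

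All 13 mRNAs were above 0 in both young libraries, and in young unfractionated cells they ran from 2269 FPKM for MT-ND2 to 75779 FPKM for MT-ATP8. They were among the most abundant annotated genes: members of the mitochondrial genome took 9 of the top 20 places in young unfractionated cells and 13 of the top 20 in young mitoplasts, and MT-ATP8 was first in both. In the young mitoplast library the same 2 genes stood at the ends of the range, at 10945 and 228299 FPKM.

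**Figure D1:**
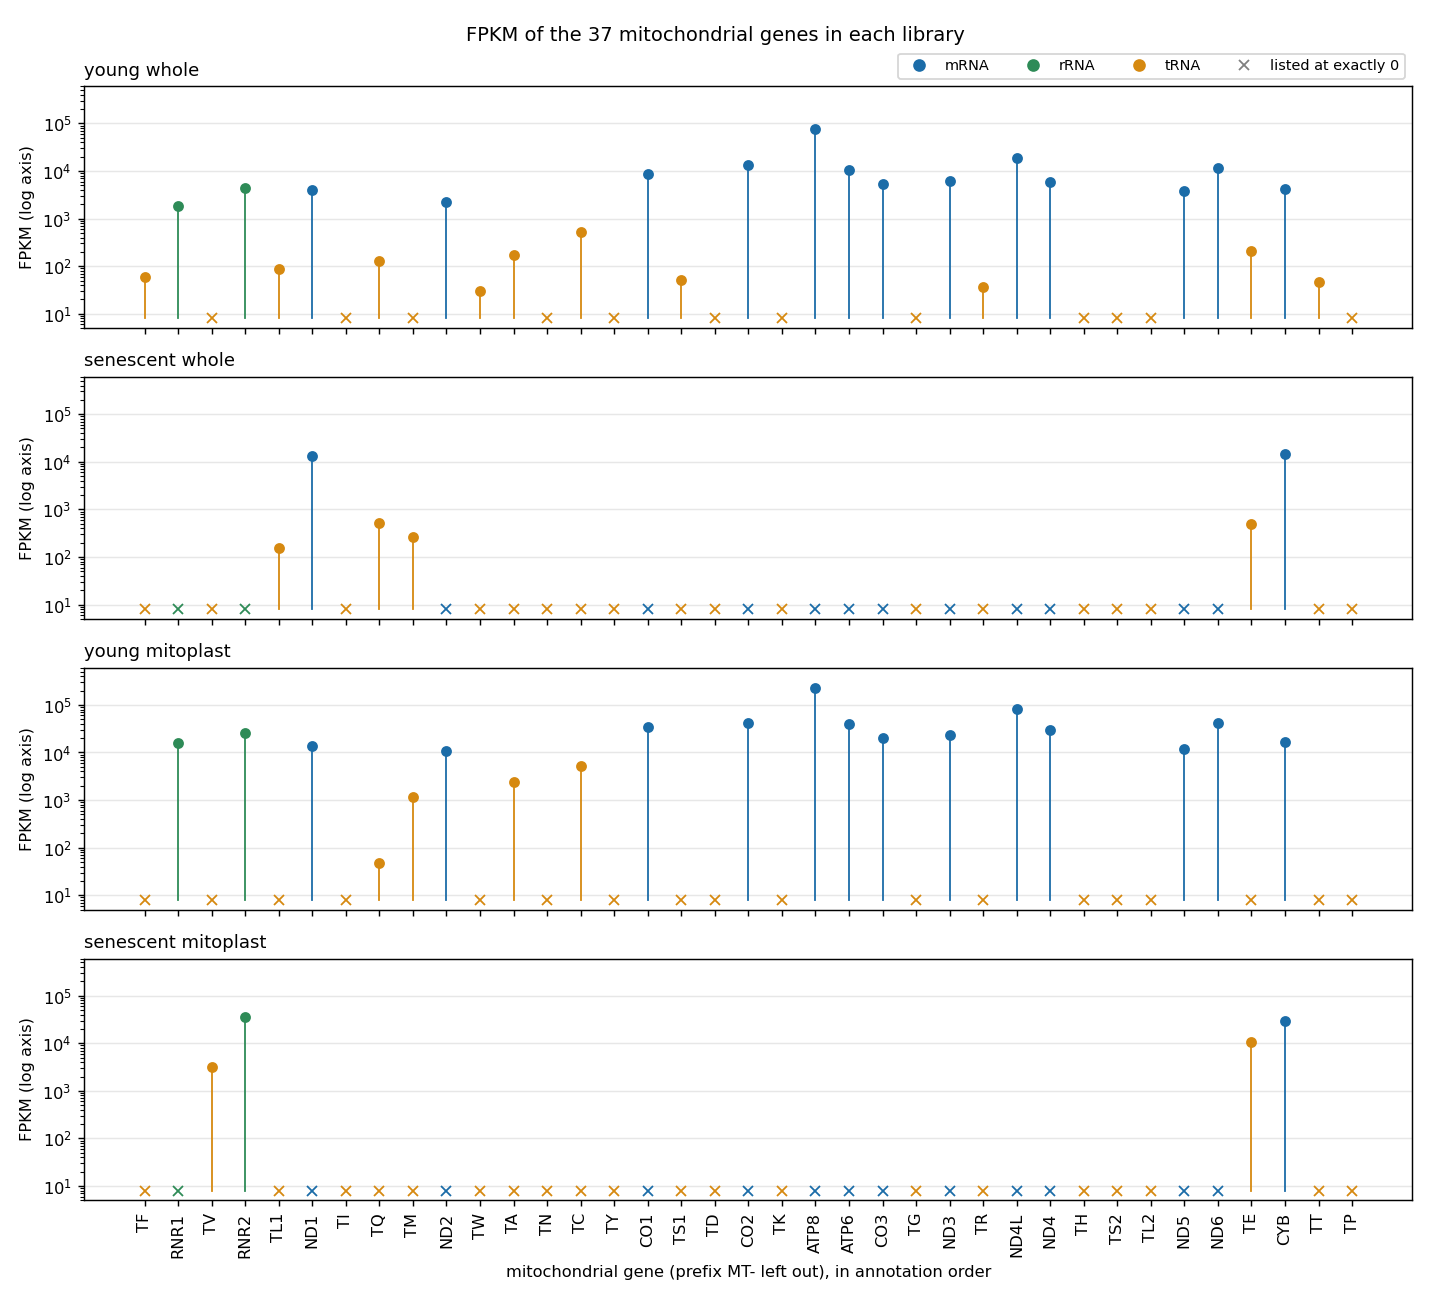
FPKM (log axis) of the 37 mitochondrial genes in annotation order, 1 panel per library; points are single values and crosses mark values listed at exactly 0. In the young panels all 13 mRNAs (blue) and both rRNAs (green) are above 0, while 31 of 37 genes in senescent unfractionated cells and 33 of 37 in senescent mitoplasts are crosses.

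Subunits of complex I, the NADH dehydrogenase, were spread from the lowest mRNA up to MT-ND4L, which ranked below MT-ATP8 alone in both young libraries. MT-ND1 was at 4067 FPKM in young unfractionated cells and 13913 in young mitoplasts, and MT-ND2, the lowest mRNA, at 2269 and 10945. MT-ND3 was at 6194 and 22878 FPKM and MT-ND5, the longest mRNA at 1812 nt, at 3753 and 11869. MT-ND6 is the sole mRNA encoded on the other strand. It was at 11712 and 41029 FPKM, 3.12 and 3.46 times the level of its neighbour MT-ND5. Strand use was not stated in the labels; counted without strand, reads from MT-ND6 or a minus-strand tRNA and reads from the opposite strand there cannot be told apart.

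Complex IV, cytochrome c oxidase, has 3 mitochondrial subunits that form its catalytic core. MT-CO2 was the highest of them, at 13518 FPKM in young unfractionated cells and 42076 in young mitoplasts, with MT-CO1 at 8540.2 and 34115 and MT-CO3 at 5356 and 19812. The order of the 3 was the same in both fractions. MT-CYB, the cytochrome b of complex III, was at 4257 and 16952 FPKM.

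The overlapping pairs were measured at unequal levels per length. MT-ATP8 was at 75779 and 228299 FPKM in young unfractionated cells and young mitoplasts, and MT-ATP6 at 10280 and 40265. MT-ND4L was at 18729 and 81546 FPKM, and MT-ND4 at 5876 and 29954. MT-ATP8, a small ATP synthase subunit, was at 7.37 times the FPKM of MT-ATP6, the proton-channel subunit, in young unfractionated cells and at 5.67 times in young mitoplasts. MT-ND4L was at 3.19 and 2.72 times the FPKM of MT-ND4. In both pairs the shorter frame had the higher value, 207 nt against 681 nt and 297 nt against 1378 nt.

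Length and FPKM were related across the mRNAs. Over the 13 mRNAs the Spearman correlation of FPKM with annotated length was −0.73 in young unfractionated cells and −0.68 in young mitoplasts, and over the 9 mRNAs of 600 nt or more it was −0.45 in both. These correlations are across genes of 1 library, which share its depth and processing, and are given as a description. The 13 mRNAs spanned 33.4-fold in young unfractionated cells, whereas the 9 longer ones spanned 5.96-fold, from 2269 to 13518 FPKM. Position along the plus strand showed no such relation, with correlations of −0.03 and −0.01 over 12 mRNAs. Whether the FPKM of the shortest genes follow their RNA level was not tested.

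Multiplying FPKM by annotated length gives what is here called the fragment scale. It is proportional to fragments only if FPKM were scaled by that same length, which was not stated. Values of the shortest genes on this scale, MT-ATP8 and the tRNAs among them, are therefore uncertain. The mRNAs were more even on it. MT-ATP8 then held 17.6% of the mitochondrial mRNA total in young unfractionated cells, where it held 44.5% of the summed FPKM. MT-CO1 followed with 14.8% and MT-CO2 with 10.4%. By complex, complex I held 39.3% on the fragment scale in young unfractionated cells and 42.5% in young mitoplasts, complex IV 29.8% and 29.2%, ATP synthase 25.4% and 22.5%, and complex III 5.45% and 5.82%.

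The profile of the mRNAs was nearly the same in young unfractionated cells and young mitoplasts. Of 13 mRNAs, 11 held the same rank in both libraries, and the Pearson correlation of their log2 FPKM was 0.98. MT-ND3 and MT-ND4 changed places. The mitoplast to whole-cell ratio ran from 3.01 for MT-ATP8 to 5.10 for MT-ND4, a span of 1.69-fold, with a median of 3.70. MT-ND4, MT-ND2 and MT-ND4L, all of complex I, had the 3 highest ratios at 5.10, 4.82 and 4.35. MT-ND1 and MT-ND5, also of complex I, were at 3.42 and 3.16, so the complex did not move as a block. The median ratio was 3.69 for complex I and 3.70 for complex IV.

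All 13 mRNAs were thus higher in young mitoplasts by 1 log2 unit or more, where ratios on this scale are log2((A + 1)/(B + 1)) of FPKM. Among all 15565 genes at 1 FPKM or more in either library, 23.1% were higher by that much. The median log2 ratio of the mRNAs was 1.89, against −0.46 over all genes compared. That median was 1.63 and 2.28 after rescaling to nuclear-encoded genes by their sum or their median ratio, but −1.43 when the libraries were rescaled to their whole sum, assembled transcripts included, which shifts every log2 ratio of this pair by −3.31.

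**Figure D2:**
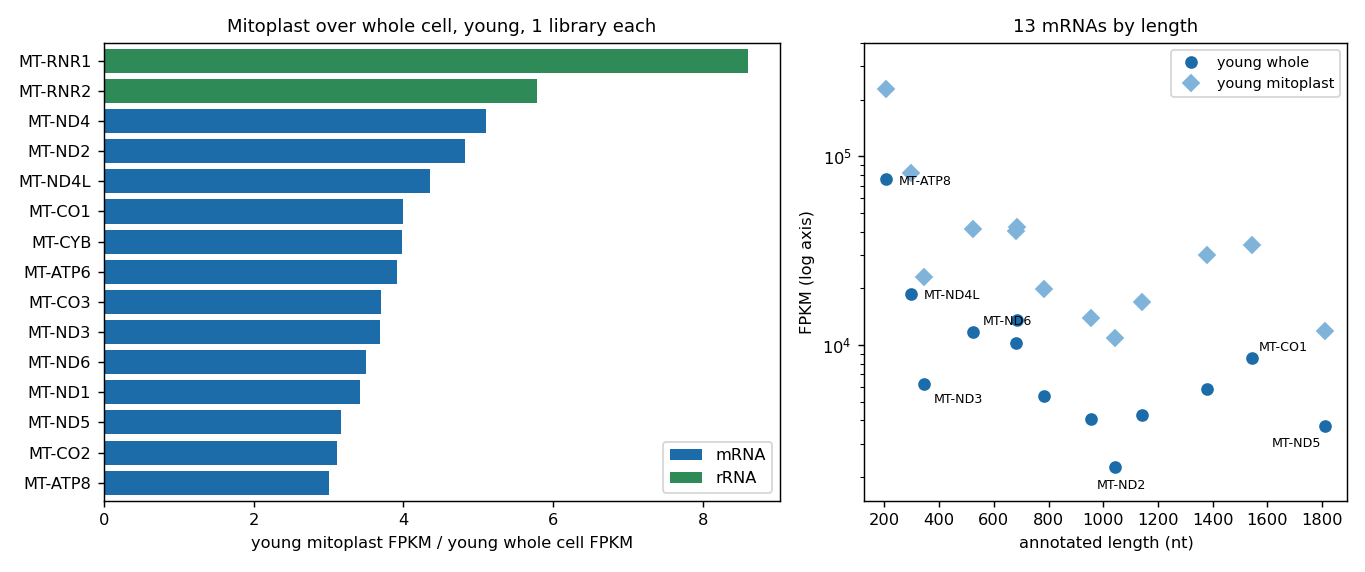
Left, young mitoplast FPKM over young whole-cell FPKM (linear axis from 0) for the 13 mRNAs (blue) and 2 rRNAs (green), 1 library each; right, FPKM (log axis) against annotated length in nt for the 13 mRNAs in both young libraries. The rRNAs have the longest bars, at 8.60 and 5.79, above mRNAs between 3.01 and 5.10, and the shortest mRNA, MT-ATP8, has the highest FPKM.

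Both rRNAs had a higher young mitoplast to whole-cell ratio than any mRNA. MT-RNR1, the 12S RNA of the small ribosomal subunit, was at 1853 FPKM in young unfractionated cells and 15943 in young mitoplasts, a ratio of 8.60. MT-RNR2, the 16S RNA of the large subunit, was at 4367 and 25273 FPKM, a ratio of 5.79. Both ratios turned below 1 on the sum of all transcripts, which multiplies them by 0.101. The 16S RNA exceeded the 12S RNA 2.36-fold in unfractionated cells and 1.59-fold in mitoplasts.

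Within each young library, the 2 rRNAs summed to a small part of the 13 mRNAs. The ratio of summed rRNA to summed mRNA FPKM was 0.0365 in unfractionated cells and 0.0694 in mitoplasts, and 0.0962 and 0.164 on the fragment scale. Against the mRNAs of 600 nt or more alone it was 0.107 and 0.187, so it was higher in mitoplasts on each of these scales. By class, the mRNAs held 95.7% of the mitochondrial FPKM in young unfractionated cells, the rRNAs 3.50% and the tRNAs 0.759%, and in young mitoplasts 92.2%, 6.40% and 1.38%. These ratios are taken within a library and do not depend on its scaling.

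The tRNAs were seldom given a value above 0. Of 22, 10 were above 0 in young unfractionated cells, 4 in senescent unfractionated cells, 4 in young mitoplasts and 2 in senescent mitoplasts. None was above 0 in all 4 libraries, and 10 were listed at 0 in every library: MT-TD, MT-TG, MT-TH, MT-TI, MT-TK, MT-TL2, MT-TN, MT-TP, MT-TS2 and MT-TY. An exact 0 in such files can be a failed estimate, so these entries are not read as absence.

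The sequences of 5 tRNAs are shown because the results that follow turn on them. They were read from GENCODE release 29 (GRCh38), each 5′ to 3′ on its own strand, and capitals mark the anticodon. It was located as the middle of a 7-nt loop with T before it, closed by a 5-nt stem with at least 4 pairs, whose triplet pairs with a codon of the gene's amino acid in the vertebrate mitochondrial code.
MT-TA: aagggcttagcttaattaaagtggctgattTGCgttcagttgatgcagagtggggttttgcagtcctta
MT-TC: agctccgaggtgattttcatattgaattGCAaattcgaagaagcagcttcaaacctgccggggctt
MT-TE: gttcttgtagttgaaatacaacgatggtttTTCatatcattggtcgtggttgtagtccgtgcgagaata
MT-TQ: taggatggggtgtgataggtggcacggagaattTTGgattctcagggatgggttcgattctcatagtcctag
MT-TV: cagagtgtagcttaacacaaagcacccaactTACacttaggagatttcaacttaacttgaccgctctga
MT-TA, MT-TC, MT-TE and MT-TQ lie on the minus strand and MT-TV on the plus strand. MT-TA is at chrM:5587-5655, MT-TC at chrM:5761-5826, MT-TE at chrM:14674-14742, MT-TQ at chrM:4329-4400 and MT-TV at chrM:1602-1670, where it separates the 2 rRNA genes.

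MT-TC, the cysteine tRNA, was at 528 FPKM in young unfractionated cells and 5316 in young mitoplasts, and was listed at 0 in both senescent libraries. MT-TA, the alanine tRNA, showed the same pattern, at 175 and 2348 FPKM in the young pair and 0 in the senescent pair. The young ratios of these tRNAs, 10.1 and 13.4, were larger than those of the mRNAs. MT-TQ, the glutamine tRNA, went the other way, at 127 and 47.1 FPKM in the young pair. It was at 527 FPKM in senescent unfractionated cells and listed at 0 in senescent mitoplasts.

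MT-TE, the glutamate tRNA next to MT-ND6, had the highest value of any tRNA. It was at 210 FPKM in young unfractionated cells, 493 in senescent unfractionated cells, 0 in young mitoplasts and 10391 in senescent mitoplasts. MT-TV, the valine tRNA between the rRNAs, was above 0 in senescent mitoplasts alone, at 3230 FPKM. MT-TM, the methionine tRNA, was at 258 FPKM in senescent unfractionated cells and 1154 in young mitoplasts, and listed at 0 in the other two.

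The remaining tRNAs above 0 were low and confined to unfractionated cells in these files. MT-TL1, a leucine tRNA, was at 87.3 FPKM in the young and 158 in senescent unfractionated cells. MT-TF, MT-TS1, MT-TT, MT-TR and MT-TW were above 0 in young unfractionated cells alone, between 30.2 and 57.9 FPKM. Between the young fractions, 3 of the 11 tRNAs compared were higher in mitoplasts by 1 log2 unit or more and 8 were lower, beside 23.1% and 40.2% of all genes; on the sum of all transcripts 1 was higher. A median over these 11 would rest on zeros. Over the 3 that were above 0 in both libraries it was 3.33, with MT-TA at 3.74, MT-TC at 3.33 and MT-TQ at −1.41. These are not the 3 counted as higher, which were MT-TA, MT-TC and MT-TM. MT-TM was listed at 0 in young unfractionated cells.

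**Figure D3:**
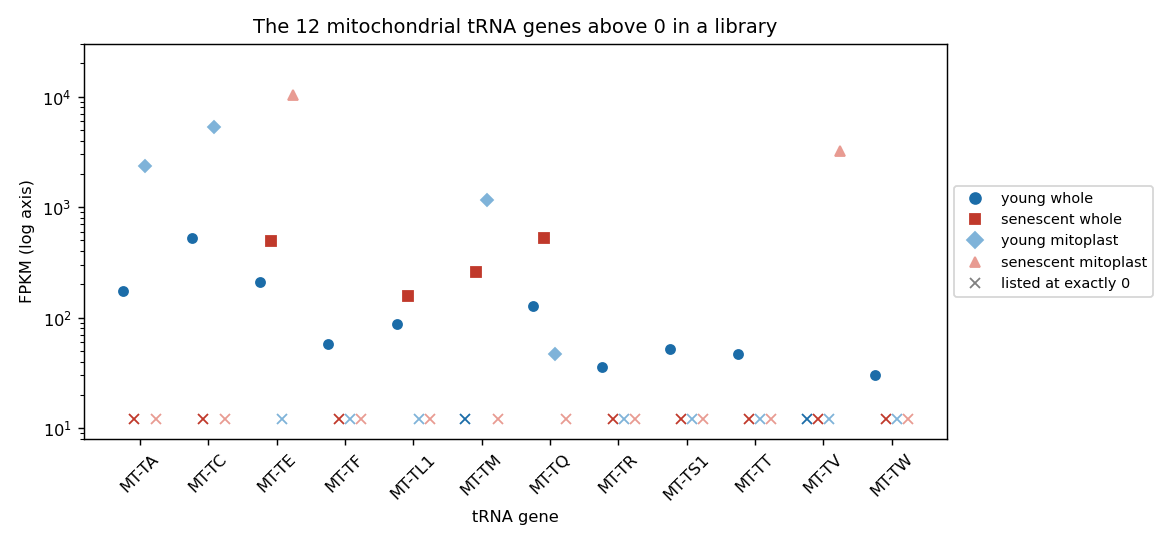
FPKM (log axis) of the 12 tRNA genes that were above 0 in a library, by library; each point is a single value and crosses mark values listed at exactly 0. The highest point is MT-TE in senescent mitoplasts, at 10391 FPKM, and no gene has 4 points.

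Summed tRNA to mRNA FPKM was 0.00793 in young unfractionated cells and 0.0149 in young mitoplasts. Summed tRNA to rRNA FPKM was 0.217 and 0.215. Minus-strand tRNAs held most of the tRNA FPKM in both young libraries: 1093 of 1350 FPKM in unfractionated cells and 7711 of 8865 in mitoplasts, although 8 of the 22 genes lie on that strand. Base composition of the tRNAs above 0 was somewhat richer in G and C than that of those listed at 0, with medians of 40.0% and 35.7% in young unfractionated cells and 45.5% and 37.1% in young mitoplasts. Lengths hardly differed, with medians between 68.5 and 70.5 nt in all sets.

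In the senescent libraries most members were listed at 0. In senescent unfractionated cells 11 of 13 mRNAs, 2 of 2 rRNAs and 18 of 22 tRNAs were at exactly 0, and in senescent mitoplasts 12, 1 and 20. Zeros of this kind were unusual among abundant genes: of 2115 other genes at 50 FPKM or more in young unfractionated cells, 2.55% were listed at 0 in senescent unfractionated cells. Of 1192 other genes at 50 FPKM or more in young mitoplasts, 11.7% were listed at 0 in senescent mitoplasts. These other genes were summed over their annotated transcripts and are at 0 only where all of them are, while each member is a single transcript. The tRNAs cannot be set beside these shares, since 12 and 18 of them were already listed at 0 in young unfractionated cells and young mitoplasts.

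The senescent zeros of the plus-strand mRNAs and rRNAs mostly lined up with the loci into which each file divides the mitochondrial genome. In senescent unfractionated cells, 21 members shared a locus with an assembled transcript at 18676 FPKM, and all 21 were listed at 0. They include 10 mRNAs and both rRNAs. MT-ND1 and the pair of MT-CYB and MT-TT stood in loci of their own, without an assembled transcript, and MT-ND1 and MT-CYB were above 0. In senescent mitoplasts, 26 members shared a locus with an assembled transcript at 48513 FPKM; 24 of them were listed at 0, and MT-RNR2 and MT-TV were not. Neither young library held an assembled transcript in a mitochondrial locus, although their plus-strand members were also grouped, 28 in one locus of young unfractionated cells and 27 in one of young mitoplasts. Which genes the assembled transcripts cover is not known from the files, and a link between these transcripts and the zeros was not tested.

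Other genes were examined in the same way. Among the other genes at 50 FPKM or more in young unfractionated cells, an assembled transcript above 0 lay in the locus of 46.3% of those listed at 0 in senescent unfractionated cells and of 16.1% of the rest. In mitoplasts the corresponding shares were 22.3% and 7.98%. At 1000 FPKM or more, a level that the mitochondrial mRNAs and rRNAs all passed, few genes could be compared: 1 of 2 listed at 0 in senescent unfractionated cells had such a transcript, against 3.49% of the rest, and 0 of 3 in senescent mitoplasts, against 4.35%.

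MT-ND6 stood apart from this pattern. It was listed at 0 in both senescent libraries, after 11712 and 41029 FPKM in the young ones, yet its locus held no assembled transcript in either. In senescent unfractionated cells that locus was shared with MT-TE and MT-TP, and in senescent mitoplasts with all 8 minus-strand tRNAs. MT-TE, its neighbour, was the sole member of these loci above 0.

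MT-CYB was the sole member with a value above 0 in all 4 libraries, so all 4 comparisons can be given for it alone. Because it was picked by those values, its ratios are a description of 1 member and do not stand for the others. Its locus also differed between the ages. In the young libraries MT-CYB stood in loci of 28 and 27 members, and in both senescent ones with MT-TT alone. It was at 4257 FPKM in the young and 14663 in senescent unfractionated cells, a ratio of 3.44, and at 16952 and 29903 in young and senescent mitoplasts, a ratio of 1.76. Its mitoplast to whole-cell ratio was 3.98 in young and 2.04 in senescent cells. The log2 ratio of senescent to young was 1.78 in unfractionated cells, and 1.06, 1.82 and 1.94 under rescaling to the sum of all transcripts, the sum of nuclear-encoded genes and their median ratio. In mitoplasts it was 0.82, and 0.70, 1.66 and 1.23 in the same order, so it passed 1 under both rescalings to nuclear-encoded genes. The fraction ratios kept their direction under the rescalings to nuclear-encoded genes and turned to −1.32 in young and −1.67 in senescent cells on the sum of all transcripts.

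By count, 2 of 13 mRNAs were higher in senescent than in young unfractionated cells by 1 log2 unit or more, beside 17.4% of all genes, and the other 11 passed as lower through their zeros, beside 21.3%. In mitoplasts none was higher, beside 22% of all genes, and 12 passed as lower through their zeros, beside 57.7%; no test was run. Between the senescent fractions 2 mRNAs could be compared: MT-CYB was higher in mitoplasts, beside 18.7% of all genes, and MT-ND1 was listed at 0 there, beside 64.7% that were lower. These counts describe the deposited values and not the amount of mitochondrial RNA.

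Ratios to MT-CYB do not depend on how a library is scaled. MT-ND1 was at 0.956 of MT-CYB in young unfractionated cells, 0.899 in senescent unfractionated cells and 0.821 in young mitoplasts. MT-RNR2 was the sole rRNA above 0 in a senescent library, at 36308 FPKM in senescent mitoplasts against 25273 in young ones. It was at 1.03, 1.49 and 1.21 of MT-CYB in young unfractionated cells, young mitoplasts and senescent mitoplasts. The assembled transcript was at 1.27 of MT-CYB in senescent unfractionated cells and 1.62 in senescent mitoplasts. For the same 21 members in young unfractionated cells, the mean FPKM weighted by length was 1.64 of MT-CYB, and for the same 26 members in young mitoplasts it was 1.55. These means and the level of the assembled transcript are unlike measures from different libraries. The 26 also include MT-RNR2 and MT-TV, which had values of their own in senescent mitoplasts. Whether the measures correspond was not tested. MT-TE was at 0.0494 and 0.0337 of MT-CYB in young and senescent unfractionated cells and at 0.347 in senescent mitoplasts.

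The nuclear genome holds copies of mitochondrial sequence that lie on chromosomes and share reads with the originals. Of 397 such entries in the files, 9 reached 10 FPKM in a library, and 7 of these were above 0 in all 4. Over the aligned bases these 7 were between 95.0% and 99.1% identical to the mitochondrial gene in the GENCODE transcripts, so their reads may not be told apart from mitochondrial ones, and both sets of values are uncertain to that extent.

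MTCO3P12, a copy of MT-CO3, was at 398 FPKM in young unfractionated cells, 751 in senescent unfractionated cells, 1092 in young mitoplasts and 2449 in senescent mitoplasts. MTND1P23, a copy of MT-ND1, was at 45.6, 101, 128 and 244 FPKM in the same order. MTND4P12 was at 11.3, 35.7, 52.1 and 95.6 FPKM. Each of these was lowest in young unfractionated cells and highest in senescent mitoplasts, while MT-CO3 and MT-ND4 themselves were listed at 0 in the senescent libraries.

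MTND6P4, a copy of MT-ND6 with 95.0% identity, was at 69.5 FPKM in young unfractionated cells, 73.7 in senescent unfractionated cells, 319 in young mitoplasts and 2706 in senescent mitoplasts. Its ratio of senescent to young mitoplasts was 8.47, the highest of the 7 copies, and its ratio of senescent to young unfractionated cells, 1.06, was the lowest.

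The copies MTCO1P12 and MTCO2P12, of the MT-CO1 and MT-CO2 genes, were at 6.98 and 8.59 FPKM in young unfractionated cells and at 60.3 and 57.9 in senescent mitoplasts. MTND2P28 was at 3.90 and 61.1 FPKM in these libraries. On the deposited scale all 7 were higher in mitoplasts than in unfractionated cells, with a median ratio of 4.60 in young and 3.16 in senescent cells. On the sum of all transcripts, which multiplies these ratios by 0.101 and 0.154, all 7 were lower in young mitoplasts and all but MTND6P4 in senescent ones. They were also higher in senescent than in young cells, with ratios of 1.06 to 3.84 in unfractionated cells and 1.48 to 8.47 in mitoplasts; on the same sum MTND6P4 turned lower in senescent unfractionated cells and the others did not. MT-CYB stood at 3.44 and 1.76 in those comparisons. The 7 were picked by their level and for being above 0 in all 4 libraries, so these ratios are a description. Over all copies at 1 FPKM or more in either library, 11 of 20 were higher in young mitoplasts by 1 log2 unit or more and 9 lower, with a median log2 ratio of 1.06. Among all genes 23.1% were higher and 40.2% lower there, with a median of −0.46. In senescent mitoplasts 21 of 40 copies were lower and 13 higher, and the median log2 ratio was −1.03. Among all genes 64.7% were lower and 18.7% higher in that pair, with a median of −1.48. The median of the whole list was thus below 0 between senescent fractions, though less so than that of all genes. For age, 12 of 34 copies in unfractionated cells stood higher in the senescent library by 1 log2 unit or more, and 2 stood lower. Their median log2 ratio was 0.75. All genes had 17.4% higher, 21.3% lower and a median of −0.13. In mitoplasts 9 of 19 copies stood higher in the senescent library and 2 lower, and their median was 0.96. All genes had 22% higher, 57.7% lower and a median of −1.27 in that pair. Copies listed at 0 in either library entered all these counts.

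The last 2 of the 9 were MTND3P25, at 10.6 and 12.03 FPKM in the young and senescent unfractionated cells and 0 in both mitoplast libraries, and MTND3P8, above 0 in senescent mitoplasts alone, at 18.2 FPKM. Both were less like MT-ND3, with 89.6% and 76.0% identity.

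**Figure D4:**
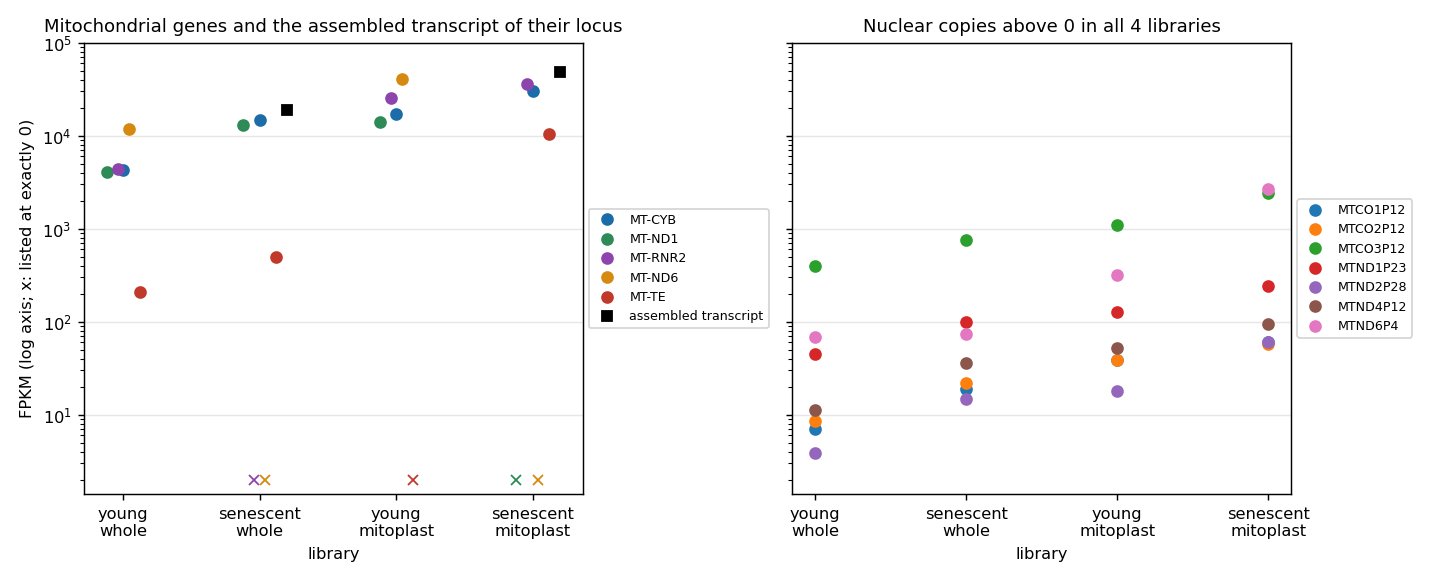
FPKM (log axis) by library, 1 value per point. Left, 5 mitochondrial genes and the assembled transcript of their locus, with crosses for values listed at exactly 0; right, the 7 nuclear copies above 0 in all 4 libraries. MT-CYB has a point in every library, from 4257 to 29903 FPKM, while MT-ND6 has crosses in both senescent libraries and MTND6P4 reaches 2706 FPKM in senescent mitoplasts.

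The 37 members held 15.6% of the annotated FPKM in young unfractionated cells and 35.9% in young mitoplasts. In the senescent libraries they held 3.02% in unfractionated cells and 11.1% in mitoplasts, or 4.86% and 16.7% with the assembled transcript added. Over all FPKM, assembled transcripts of any locus included, the 4 shares were 7.24%, 2.64%, 0.720% and 0.302% in the order young whole, young mitoplast, senescent whole and senescent mitoplast. The fraction that held the larger share thus turned with the denominator in both ages. Because the assembled transcript counts once however many genes it covers, the senescent shares cannot be set against the young ones.

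A list of nuclear genes, here called mitochondrial RNA factors, gave a background for these levels. It covers the synthesis, cutting, modification and turnover of mitochondrial RNA and also mitochondrial DNA replication genes such as POLG and TWNK. Of 40, 39 were matched in the files and 32 reached 1 FPKM in each whole-cell library. Between young fractions 5 of 36 compared were higher in mitoplasts by 1 log2 unit or more and 8 lower, with a median of 0.04, beside 23.1% and 40.2% of all genes and a median of −0.46. In senescent against young unfractionated cells 1 of 32 was higher and 4 lower, with a median of −0.21, beside 17.4% and 21.3% of all genes and a median of −0.13.

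SLIRP, which with LRPPRC stabilises mitochondrial mRNAs, was at 130.1 FPKM in the young and 59.5 in senescent unfractionated cells, and LRPPRC at 5.81 and 8.19. POLRMT, the mitochondrial RNA polymerase, was at 16.5 and 3.53 FPKM. PRORP, which cuts the 5′ ends of mitochondrial tRNAs, was at 107 and 73.4 FPKM, and ELAC2, which cuts their 3′ ends, at 9.54 and 10.8. TRNT1, which adds the CCA tail of tRNAs, was at 41.8 and 34.2 FPKM, and REXO2, an exonuclease for short RNA, at 54.8 and 59.1. SSBP1, the mitochondrial single-stranded DNA binding protein, was at 78.8 and 62.5 FPKM.

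In senescent mitoplasts 23 of 35 factors were lower than in senescent unfractionated cells and 6 higher, beside 64.7% and 18.7% of all genes. Against young mitoplasts 22 of 36 were lower and 4 higher, beside 57.7% and 22%. Both shares of lower genes lay near the background.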

How the data were processed

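The authors deposited, per the file headers, FPKM for annotated and assembled transcripts, 1 file per library with 393483 transcripts each. Tools listed in the submitters' processing notes, without role or order, are Cufflinks 2.2.1, TopHat2 2.0.14 and Cuffdiff, and the build is hg19. Annotation release, strand use and depth: not given in the sources used here. Annotated transcripts were given symbols through GENCODE 29, which matched 172595 of 185591 (93.0%), and summed by symbol. Genes at 1 FPKM or more in either library of a pair were compared by log2((A + 1)/(B + 1)), and a log2 ratio of 1 or more either way was counted. No plain fold was taken against a value of 0, but genes listed at 0 in either library entered the counts, shares and medians through the added 1. Of the genes compared, 10887 of 15565 between young fractions and 7447 of 14699 between senescent fractions were above 0 in both. Over these the all-gene median log2 ratio was −0.26 in place of −0.46, and −0.91 in place of −1.48. Each group held 1 library, so no test was run.

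All 37 members are named, together with the assembled transcripts of their loci, and, from lists of mitochondrial RNA factors and nuclear copies, genes at 10 FPKM or more in a library were eligible to be named. The members and lists were chosen with earlier results of these data known. The ratio calculation was run on values of the young unfractionated library with known changes planted in chosen genes. That checks the arithmetic and says nothing about noise or zeros in these libraries. Python 3.11.15 and pandas 2.3.3 were used. Alternatives were the pseudocount, the scaling, the denominators and the genes summed.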

Additional observations from a re-analysis of the deposited data

Results flagged for a closer look

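For 5 members a difference between 2 libraries ran one way in one age or fraction and the opposite way in the other; each direction rests on 1 library a group and the difference was not tested. MT-ND1 was at 4067 FPKM in the young and 13185 FPKM in the senescent unfractionated cells, but at 13913 in young and 0 in senescent mitoplasts. MT-RNR2 was at 4367 and 0 FPKM in the young and senescent unfractionated cells, and at 25273 and 36308 in young and senescent mitoplasts.

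MT-TM and MT-TQ were higher in senescent unfractionated cells and listed at 0 in senescent mitoplasts. MT-TM was at 0 and 258 FPKM in the young and senescent unfractionated cells and at 1154 and 0 in the mitoplasts. MT-TQ was at 127 and 527 FPKM in unfractionated cells and at 47.1 and 0 in mitoplasts.

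MT-TE was higher in senescent cells in both fractions, while its mitoplast to whole-cell difference turned. It was at 210 FPKM in young unfractionated cells and 0 in young mitoplasts, against 493 in senescent unfractionated cells and 10391 in senescent mitoplasts. Each of these patterns rests on a value of exactly 0.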

How the results depend on the processing

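Of the values recomputed under an alternative, 38 stayed the same, 38 moved and 3 changed direction. With no replicate spread to compare with, a value counted as the same where it was unchanged as rounded for print, and a count where it was within 1.5 times the reported one. The tally does not measure stability, because some alternatives could not change a value. Filters on level removed no mRNA in the young pair, and the young libraries had no assembled transcript to add. Pseudocounts were small beside the levels. Each log2 ratio moved or changed direction under every rescaling. Rescaling to annotated nuclear-encoded genes by sum, by median ratio, and to all transcripts put the median log2 ratio of the mRNAs between young fractions at 1.63, 2.28 and −1.43; on the last, 0 mRNAs and 1 tRNA were higher by 1 or more. In that order, MT-CYB was at 1.82, 1.94 and 1.06 for senescent against young unfractionated cells and at 1.66, 1.23 and 0.70 for mitoplasts. Its mitoplast to whole-cell value was 1.73, 2.38 and −1.32 in young and 1.58, 1.95 and −1.67 in senescent cells. The rRNA to mRNA ratio in young unfractionated cells and mitoplasts was 0.0256 and 0.0426 with MT-RNR2 alone, 0.0962 and 0.164 with FPKM times length, and 0.0392 and 0.0746 without MT-ND6. Over mRNAs of 600 nt or more, chosen after seeing the data, it was 0.107 and 0.187. The tRNA to mRNA ratio was 0.00104 and 0.00179 with FPKM times length, 0.00851 and 0.0160 without MT-ND6, and 0.0233 and 0.0403 over the longer mRNAs. The members' share in young whole, young mitoplast, senescent whole and senescent mitoplast libraries was 7.24%, 2.64%, 0.720% and 0.302% over all transcripts, and 15.5%, 35.4%, 2.87% and 9.20% for mRNAs and rRNAs alone. With the assembled transcript added it was 4.86% and 16.7% in the senescent pair. No paired analysis was possible because each group held 1 library. Depth is unknown, so counting error could not be given.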
